A study of Gallus gallus with 4 samples.

Results

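The genes of splicing and RNA processing were taken from breast muscle arrays of male broilers that differed in feed efficiency. Members were the genes whose platform symbol starts with a name of the splicing and RNA processing machinery: the SNRP, LSM, SF3, U2AF, PRPF, CWC and BUD31 names of the spliceosome, the SFRS and SRSF names of SR-type factors, the HNRNP, RBM, DDX and DHX names of RNA-binding proteins and helicases, and the CPSF and CSTF names of polyadenylation. The symbol rule found 49 genes on 52 features, and 48 genes on 50 features had a value on all 4 arrays, out of 3494 named genes on the same footing. The 2 features that did not enter were the only one of SNRPB (SNRPN in RefSeq), which had values on arrays 1 and 3 only, and a second feature of DDX18 with a value on array 1 only. The choice used names and 2 filters on the values, a ceiling of 16 and the removal of features within 0.005 of 0 on at least 3 arrays, and no member feature was removed by either.

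Muscle RNA from birds of high and of low feed efficiency, males of a single broiler line given no treatment, was set against each other on 4 2-colour arrays. On each array the low-efficiency RNA carried Cy3 (channel 1) and the high-efficiency RNA carried Cy5 (channel 2). No array swapped the dyes, and an effect of dye cannot be told apart from one of efficiency. The birds were caged and fed singly, and their gain and feed intake were recorded between 6 and 7 weeks of age. The feed was based on corn and soy, at roughly 20.5% protein and 3280 kcal per kg. Whether a channel held RNA of 1 bird or a pool is not stated, so the spread between arrays may be a spread between birds or partly technical. Values are log2 ratios within an array with the array median at 0. A positive value likely means higher in high efficiency, since channel 2 over channel 1 is the usual form, but the numerator is not stated, and if it was Cy3 every direction below turns around. A ratio holds no level, so the presence of muscle markers could not be checked, and in whole muscle fewer cells of a type and less RNA per cell cannot be told apart.

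Pre-mRNA splicing removes introns in a large particle built on small nuclear RNAs. Rings of Sm and LSm proteins hold those RNAs, U2-associated proteins mark the branch site, and later factors activate the catalytic centre. SR proteins and heterogeneous nuclear ribonucleoproteins (hnRNPs) bind exons and introns and shift which exons are kept, a choice that shapes many sarcomere proteins in skeletal muscle. Cleavage factors cut the transcript and allow the poly(A) tail to be added, and DEAD-box and DEAH-box helicases use ATP to remodel RNA in splicing, ribosome assembly, translation and decay.

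Most of these genes stood slightly above the array median, and few differed by much. By limma with Benjamini-Hochberg adjustment over all 3494 genes, 14 of the 48 were higher and 1 was lower at adjusted p under 0.05. That is 29.2% and 2.08%, beside 18.5% of all genes called higher and 6.1% called lower (31.2% against 24.6% in either direction). The median of the 48 means was 0.12, against 0.01 for all named genes. At an unadjusted p under 0.05, 19 of the 48 were higher and 2 lower, beside 914 and 407 of all 3494 genes (26.2% and 11.6%). On all 4 arrays 24 of the 48 (50%) were above 0 and 2 were below, beside 31.1% and 15.6% of all genes. On arrays 1 to 4, 39, 38, 34 and 35 of the 48 genes were above 0. The medians of the 48 were 0.22, 0.10, 0.13 and 0.07, where those of all named genes were 0.09, 0.05, 0.05 and 0.03, so part of the lean is shared by all named genes. The largest called difference was 1.91-fold, so none of the called members reached 2-fold. These genes varied little between arrays: the median SD was 0.12 against 0.17 for all genes, and 64.6% had an SD under 0.15 against 45.6%. The balance of calls depended on the zero taken. With the named genes at 0 the same 15 were called, 14 higher and 1 lower, beside 13.4% and 7.21% of all genes. There the median of the 48 was 0.07 (all genes -0.04). A change of zero shifts all genes of an array alike, so the gap between the median of the 48 and that of all genes was fixed in advance. When arrays were instead centred on their least variable features, the median of the 48 was -0.04 (all genes -0.15). In that fit 7 of the 48 were called higher and 2 lower, beside 241 and 414 of all 3494 genes (6.9% and 11.8%). As deposited the median was -0.32 (all genes -0.43). There 1 of the 48 was called higher and 11 lower, beside 9 and 1142 of all 3494 genes (0.258% and 32.7%). The calls also rest on all 4 arrays, as they do for all genes. Without array 1, 8 of the 48 members were called, all higher, beside 6.77% of all genes higher and 2.4% lower. Without array 2, 3 or 4, limma called 4 of all genes in each fit and 0 members (14 higher and 2 lower, 15 and 1, and 17 and 1 at an unadjusted p under 0.05). The share of all genes at that unadjusted p was not counted in these fits, so these member counts have no baseline. Limited to the features with 4 values, an alternative added after the data were seen, the fit without array 4 called 6 members and those without array 2 or 3 again 0. Of all genes, the fit without array 4 then called 4.12% higher and 1.55% lower, and those without array 2 or 3 called 4 and 5 genes.

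**Figure D1:**
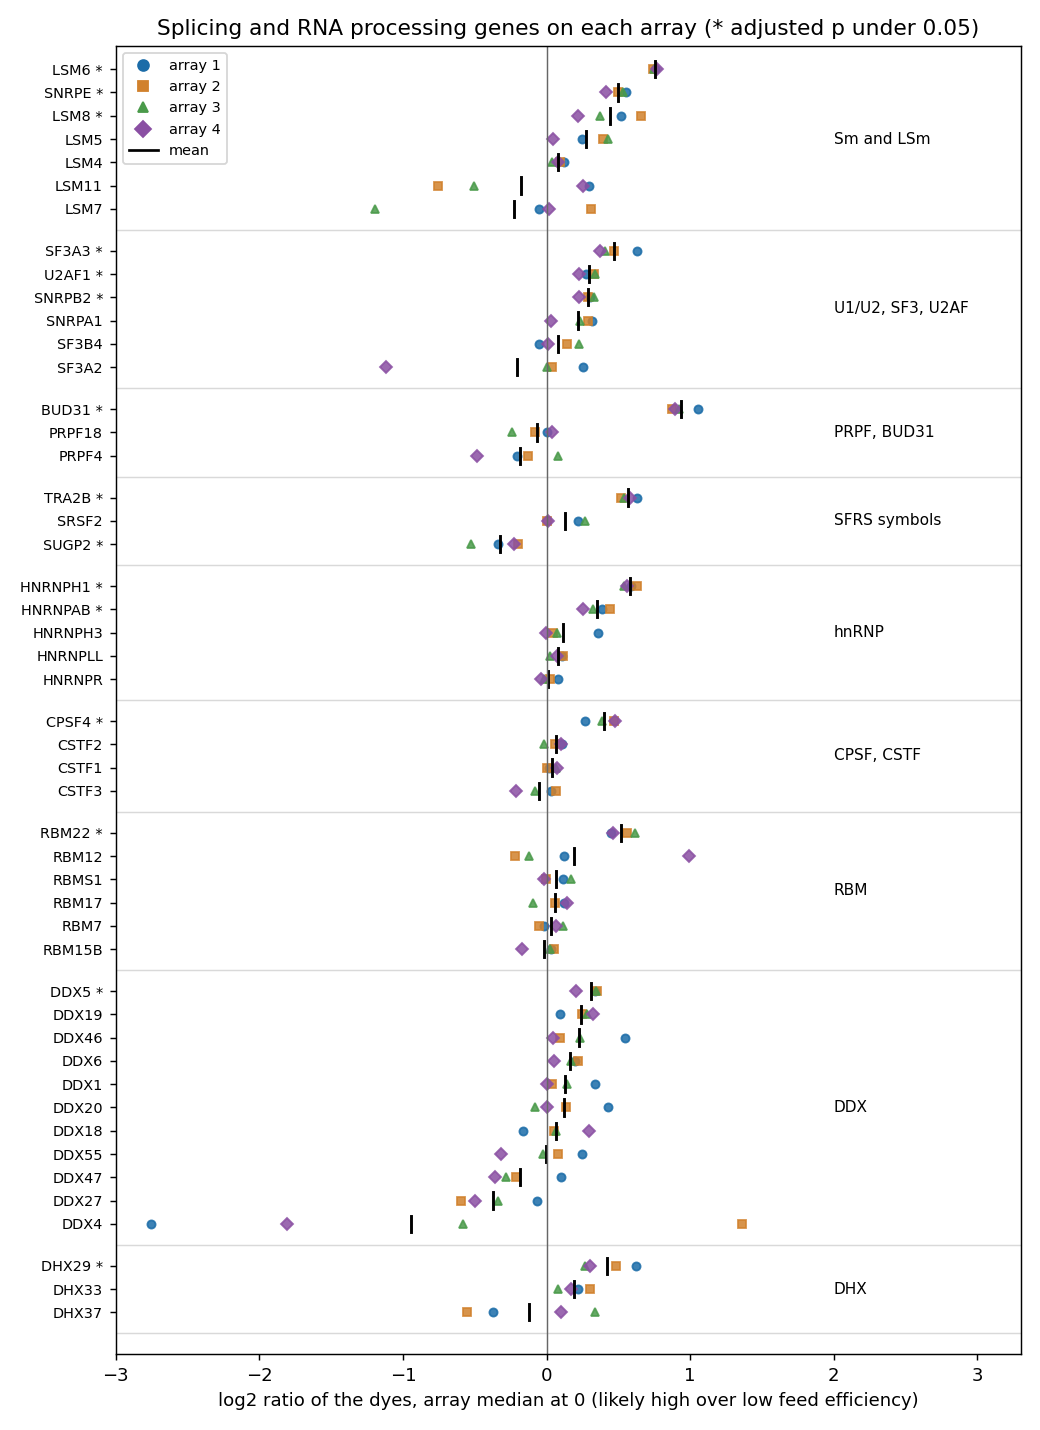
Log2 ratio of each of the 48 genes on each of the 4 arrays (coloured symbols) and the mean over arrays (black bar), by name group, with the array median at 0; an asterisk marks adjusted p under 0.05. BUD31 and LSM6 lie furthest to the right with all 4 arrays close together, and DDX4 spreads from -2.75 to 1.36.

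BUD31, a conserved component of the activated spliceosome that is needed for efficient splicing, had the highest mean. Its log2 ratio was 1.05, 0.87, 0.92 and 0.89 on arrays 1 to 4. The mean was 0.94 ± 0.08 (SD, n = 4 arrays), 1.91-fold higher (limma adjusted p = 0.00682), at percentile 99.6 of all named genes. All 4 arrays lay well above 0, and the gene was also called as deposited, where its mean was 0.49 (adjusted p = 0.0439). No other member was called higher on the deposited values. Outside these families, the genes with the most similar ratios over the 4 arrays, by root mean square difference, were SETDB1 (0.056), MRRFP1 (0.078, MRRF on the platform), TOB1 (0.097), THRSP (0.11) and RBP7 (0.11).

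PRPF4, a protein of the U4/U6 particle, and PRPF18, a factor of the second catalytic step, did not move with BUD31. PRPF4 was at -0.21, -0.13, 0.08 and -0.49 and PRPF18 at 0.01, -0.08, -0.24 and 0.04. Both crossed 0 between arrays and neither passed (adjusted p = 0.276 and 0.485).

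Among the Sm and LSm proteins, 3 of 7 measured genes were higher (42.9%, beside 18.5% of all genes), with a group median of 0.28. Each name group holds few genes, and none was tested as a set. LSM6, a member of the LSm rings that bind U6 RNA in the nucleus and decapping substrates in the cytoplasm, was at 0.75, 0.74, 0.75 and 0.77 on arrays 1 to 4. Its mean of 0.75 ± 0.015, 1.68-fold higher (adjusted p = 0.00585), had the smallest SD of the 48 genes. SNRPE, a protein of the Sm ring shared by most spliceosomal particles, was at 0.55, 0.50, 0.53 and 0.41, a mean of 0.50 ± 0.06 or 1.41-fold higher (adjusted p = 0.00893). In both genes every array was above 0.4. LSM8, the subunit that distinguishes the nuclear LSm ring, was higher by 0.44 ± 0.19 (adjusted p = 0.0336) but ranged from 0.22 on array 4 to 0.66 on array 2.

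The other ring partners of LSM6 did not pass. LSM5 was at 0.25, 0.39, 0.43 and 0.04 (adjusted p = 0.0832), above 0 on every array but near it on array 4. LSM4 was at 0.12, 0.10, 0.04 and 0.08 (adjusted p = 0.228), a narrow range, with a 95% interval of -0.03 to 0.20 that lies wholly below the values of LSM6. LSM7 was at -0.05, 0.31, -1.19 and 0.02 (adjusted p = 0.595), where array 3 alone set the negative mean. LSM11, an Sm-like protein of the U7 particle that processes histone transcripts, was at 0.30, -0.76, -0.51 and 0.25 (adjusted p = 0.61), with arrays 2 and 3 below 0 and arrays 1 and 4 above. Subunits of one ring therefore had unequal ratios on the same arrays. The differences between them were not tested.

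The U2 particle, SF3 and U2AF proteins together mark the branch site and the 3′ splice site. Of these genes 3 of 6 were higher (50%, beside 18.5% of all genes), with a median of 0.25. SF3A3, a subunit of the SF3A complex, was at 0.63, 0.47, 0.41 and 0.38, a mean of 0.47 ± 0.11 (adjusted p = 0.0147). U2AF1, the small U2AF subunit that reads the AG at the end of the intron, was at 0.28, 0.33, 0.34 and 0.23, a mean of 0.29 ± 0.05 (adjusted p = 0.0191). SNRPB2, a U2-specific protein, was at 0.30, 0.29, 0.33 and 0.23, a mean of 0.29 ± 0.04 (adjusted p = 0.0186). These last 2 genes were nearly alike in mean and range. SNRPA1, the protein that pairs with SNRPB2 on U2 RNA, was at 0.32, 0.29, 0.24 and 0.03 (adjusted p = 0.089), close to SNRPB2 on arrays 1 to 3 and near 0 on array 4. The other SF3 subunits gave no call. The 2 features of SF3B4 averaged 0.08 ± 0.13 (adjusted p = 0.422). SF3A2 was at 0.26, 0.04, 0.01 and -1.12 (adjusted p = 0.61), so that its negative mean rested on array 4, while its complex partner SF3A3 was above 0.3 there.

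The 3 genes with SFRS symbols went different ways. SFRS10, now TRA2B, an SR-like splicing activator, was at 0.63, 0.52, 0.54 and 0.58, a mean of 0.57 ± 0.05 or 1.48-fold higher (adjusted p = 0.00791). SFRS2, now SRSF2, a classical SR protein, was at 0.22, 0.005, 0.27 and 0.014 (adjusted p = 0.262), and neither of its 2 features passed. SFRS14, now SUGP2, a G-patch protein that is no SR protein despite its older name, was at -0.34, -0.20, -0.53 and -0.23. Its mean of -0.32 ± 0.15, 1.25-fold lower (adjusted p = 0.0455), made it the only member called lower, and it was below 0 on each array. Centring on the least variable features and the values as deposited both lower all genes, so its sign there was fixed in advance. The call was narrow. It was lost with values on at least 3 arrays, with the unmoderated statistic and without any 1 array (adjusted p between 0.0246 and 0.13 over all alternatives).

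Among the hnRNPs 2 of 5 were higher (40%, beside 18.5% of all genes), with a median of 0.12 and no negative mean. HNRNPH1, which binds runs of G near splice sites, was at 0.59, 0.63, 0.54 and 0.56, a mean of 0.58 ± 0.04 (adjusted p = 0.00791). Its close relative HNRNPH3 was at 0.36, 0.05, 0.07 and -0.01 (adjusted p = 0.345), below HNRNPH1 on every array. HNRNPAB was at 0.39, 0.44, 0.33 and 0.26, a mean of 0.35 ± 0.08 (adjusted p = 0.0177). HNRNPLL (0.08 ± 0.04) and HNRNPR (0.01 ± 0.05) stayed near the array median with small SDs, and their adjusted p were 0.251 and 0.873.

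Of the RNA-binding motif genes 1 of 6 was higher (16.7%, beside 18.5% of all genes). RBM22, which contacts the catalytic RNA core when the spliceosome is activated, was at 0.45, 0.56, 0.61 and 0.46, a mean of 0.52 ± 0.08 or 1.43-fold higher (adjusted p = 0.0095). The other 5 had adjusted p of 0.435 or more. They were RBM17, a splicing factor that associates with U2 proteins (0.06 ± 0.11), RBM7, of a nuclear exosome adaptor (0.03 ± 0.08), RBM15B, linked to RNA methylation (-0.02 ± 0.10), RBMS1, a single-strand nucleic acid binder (0.07 ± 0.09), and RBM12 (0.19 ± 0.55). RBM12 was at 0.12, -0.22, -0.12 and 0.99, with array 4 far above the others.

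In the cleavage and polyadenylation machinery 1 of 4 genes was higher (25%, beside 18.5% of all genes). CPSF4, the subunit that helps to recognise the AAUAAA signal, was at 0.27, 0.47, 0.39 and 0.48, a mean of 0.40 ± 0.10 or 1.32-fold higher (adjusted p = 0.0164). All 3 subunits of the cleavage stimulation factor lay at the array median: CSTF1 at 0.04 ± 0.03, CSTF2 at 0.06 ± 0.06 and CSTF3 at -0.05 ± 0.13, with adjusted p of 0.538, 0.387 and 0.613. Their 95% intervals ran from -0.23 to 0.19 at the widest.

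Of 11 DEAD-box genes 1 was higher (9.09%, beside 18.5% of all genes). DDX5, a helicase that acts in splicing and as a transcription coactivator, was at 0.34, 0.35, 0.35 and 0.21, a mean of 0.31 ± 0.07 (adjusted p = 0.0198). DDX19 (DDX19B on the platform), which releases messenger RNA at the nuclear pore, was at 0.09, 0.25, 0.29 and 0.32 and just missed the threshold (adjusted p = 0.0513). DDX6, of messenger RNA decay and translational repression, was at 0.20, 0.22, 0.17 and 0.05 (adjusted p = 0.0896). These 3 genes were above 0 on every array, as was DDX46. DDX46, a helicase of U2 recruitment (0.23 ± 0.23), DDX1, of the transfer RNA ligase complex (0.13 ± 0.15), and DDX20, of the SMN complex that loads Sm rings (0.12 ± 0.22), did not pass, and in each of them array 1 was highest.

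DDX27, DDX47, DDX55 and DDX18 are helicases known for ribosome assembly, and none of them passed. DDX27 was at -0.06, -0.60, -0.34 and -0.50, below 0 on every array (adjusted p = 0.0723). DDX47 was at -0.19 ± 0.20, DDX55 at -0.004 ± 0.24 and DDX18 at 0.06 ± 0.19, with adjusted p of 0.223, 0.985 and 0.636. DDX4, the germ cell helicase vasa, was at -2.75, 1.36, -0.58 and -1.81 (adjusted p = 0.416), by far the widest spread of the 48 genes. On 2 arrays its deposited value was the log2 of a ratio of whole numbers up to 12. That was the most of any member feature, where 4.5% of values were of this kind, and the signal level of DDX4 is unknown. Leaving DDX4 out changed the median of the members from 0.119 to 0.121. Correlations across members between pairs of arrays, a description over genes that share arrays, ran from -0.05 to 0.74 (Pearson, n = 48) and from 0.50 to 0.72 without DDX4. The rank correlations were 0.52 to 0.64 with it, beside 0.38 to 0.49 over all genes.

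Of 3 DEAH-box genes 1 was higher (33.3%, beside 18.5% of all genes). DHX29, which helps ribosomes to initiate on structured messenger RNA, was at 0.62, 0.49, 0.27 and 0.31, a mean of 0.42 ± 0.16 (adjusted p = 0.0302). DHX33 was at 0.22, 0.30, 0.08 and 0.17 and did not pass (adjusted p = 0.0754), although all arrays were above 0. DHX37, a helicase of small ribosomal subunit assembly, was at -0.37, -0.56, 0.34 and 0.10 (adjusted p = 0.652), with 2 arrays on each side of 0.

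**Figure D2:**
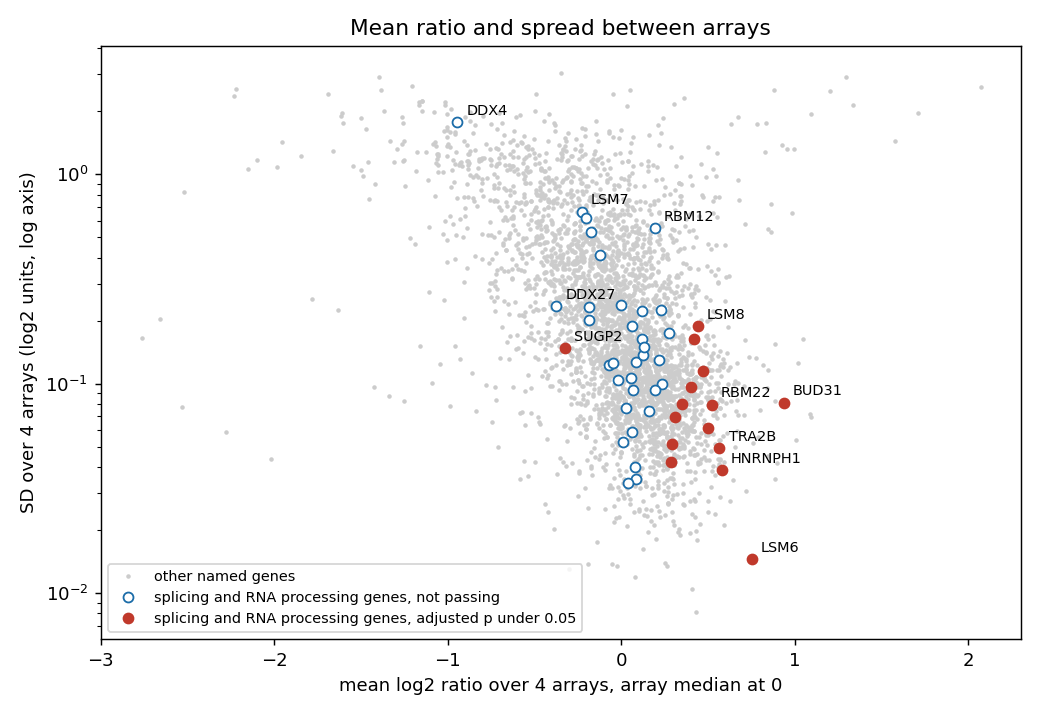
Mean log2 ratio over 4 arrays against the SD over arrays (log axis) for all named genes (grey) and the 48 splicing and RNA processing genes (red where adjusted p was under 0.05, open where not). Called members combine means of 0.29 to 0.94 above 0, or -0.32, with SDs up to 0.19, and LSM6 has an SD of 0.015.

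Across the name groups, 6 of the 48 members passed under the stricter adjusted p threshold of 0.01, all higher: BUD31, LSM6, HNRNPH1, TRA2B, RBM22 and SNRPE. At that threshold 3.72% of all genes were called higher and 1.17% lower. The same 6 were the members called when all 31722 features were tested in place of genes (adjusted p from 0.0134 for BUD31 to 0.0411 for RBM22), where 2.77% of all features were called higher. Only 11.7% of those features carry a symbol, so that share is mostly of unnamed features and is no share of named genes. Each of the 6 members has 1 feature, so the feature fit tested the same ratios again and is no separate support. The 6 members belong to 5 of the name groups, and each was above 0.4 on all 4 arrays. Centred on the least variable features they stayed called, with means of 0.78 for BUD31, 0.59 for LSM6, 0.42 for HNRNPH1, 0.41 for TRA2B, 0.36 for RBM22 and 0.34 for SNRPE. Of the other 9 called members, SF3A3 (0.31, adjusted p = 0.0408) and SUGP2 (-0.48, adjusted p = 0.0259) also passed there. CPSF4, DDX5, DHX29, HNRNPAB, LSM8, U2AF1 and SNRPB2 did not (adjusted p from 0.0555 to 0.0981). As deposited, CPSF4, DDX5, DHX29, HNRNPAB, U2AF1 and SNRPB2 had means below 0. DDX27 was called lower under both of those centrings.

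**Figure D3:**
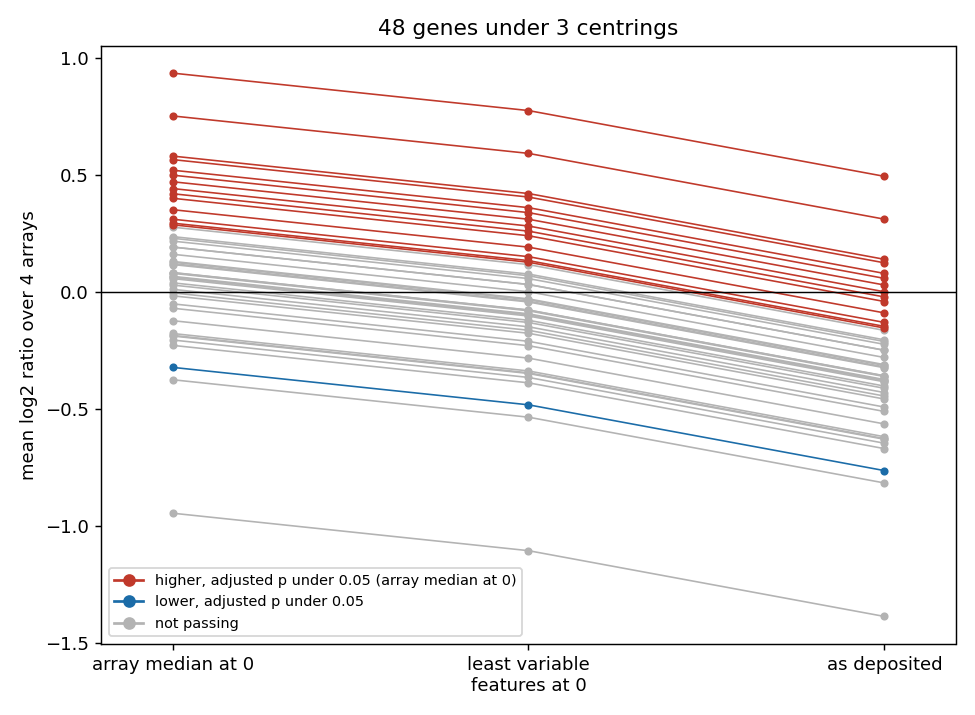
Mean log2 ratio of each of the 48 genes under 3 centrings (array median, least variable features, none), one line per gene, coloured by its call with the array median at 0. All lines fall together, and as deposited only 8 of the 48 genes remain above 0, with BUD31 at 0.49 and LSM6 at 0.31.

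Of the 33 members that did not pass, 26 had a 95% interval that excluded a 1.5-fold difference in either direction, relative to the array median as 0. As deposited, 2 of the 26 were called lower with a mean beyond 1.5-fold: DDX47 (-0.63, adjusted p = 0.0423) and PRPF4 (-0.63, adjusted p = 0.0328). The other 7 were DDX27, DDX4, DHX37, RBM12, LSM11, LSM7 and SF3A2, for which these arrays do not limit the difference to that size.

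Other genes of RNA processing, taken from 7 lists outside the symbol rule, gave 15 higher and 3 lower of 72 measured genes (20.8% and 4.17%), close to the shares over all genes, with a median of 0.12. In the list of other spliceosome proteins 4 of 16 were higher and 1 was lower (25% and 6.25%, beside 18.5% and 6.1% of all genes). BCLAF1, an RNA-processing and transcription factor, stood at 0.58 ± 0.13, the cyclophilin PPIL3 at 0.30 ± 0.03, the U5 protein SNRNP40 at 0.26 ± 0.05 and SMU1 at 0.33 ± 0.15. IK, which works with SMU1 in spliceosome activation, was lower (-0.55 ± 0.20, at -0.65, -0.78, -0.38 and -0.40). With the array median at 0, SMU1 and IK thus lay on opposite sides of 0 on each array. As deposited the means of both were below 0. Among alternative splicing regulators KHDRBS3 (0.40 ± 0.06) and TIAL1 (0.21 ± 0.07) of 14 were higher (14.3%). CELF2 (-0.17 ± 0.04, adjusted p = 0.053) and MBNL3 (0.19 ± 0.06, adjusted p = 0.0532), of families that set muscle splicing patterns and named after their values were seen, narrowly did not pass.

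**Figure D4:**
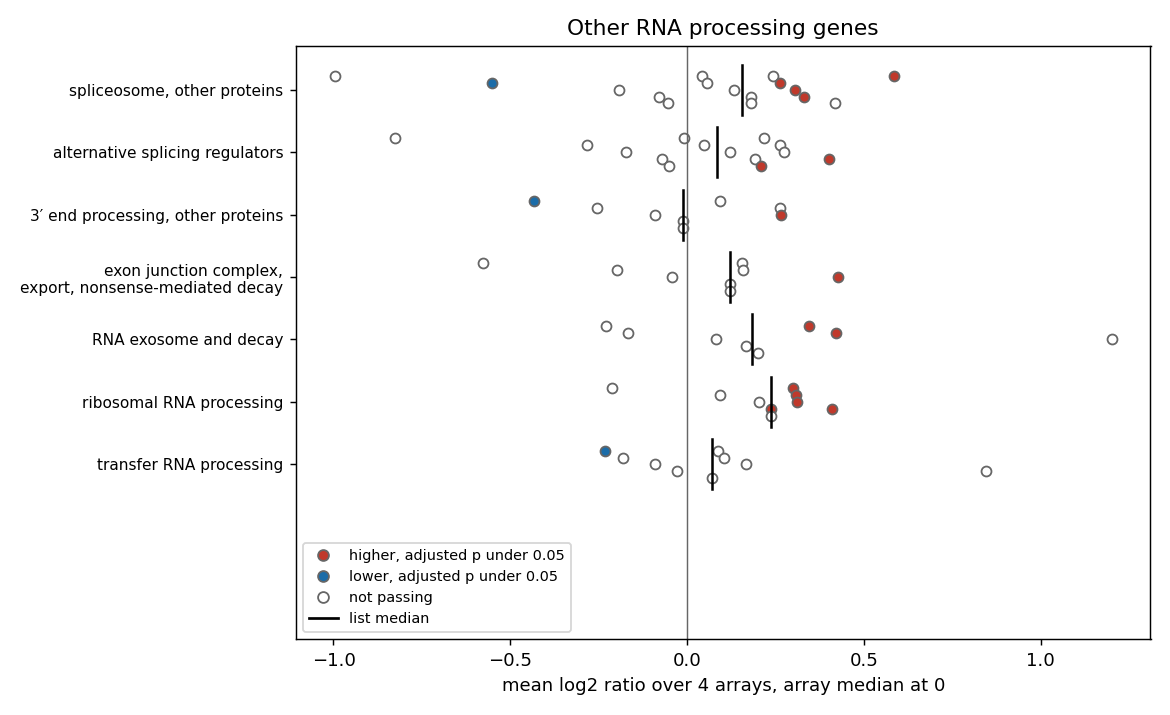
Mean log2 ratio of 72 other RNA processing genes in 7 lists, red for higher and blue for lower at adjusted p under 0.05, with list medians as black bars. Ribosomal RNA processing genes have the highest list median (0.24), and their 5 called genes lie between 0.24 and 0.41.

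In ribosomal RNA processing 5 of 9 genes were higher (55.6%, beside 18.5% of all genes), and the list was not tested as a set. Among them were nucleophosmin, NPM1 (0.41 ± 0.07), the small nucleolar ribonucleoprotein subunit NHP2 (0.31 ± 0.12), EBNA1BP2 (0.31 ± 0.05) and nucleolin, NCL (0.30 ± 0.04). NPM1 stood at -0.02 when features with a value on only 3 arrays were admitted, and at -0.18 without array 1, where another of its features entered. In the exosome and decay list EXOSC9, a ring subunit of the exosome (0.35 ± 0.12), and WDR61, of the Ski complex (0.42 ± 0.06), were higher of 8 genes (25%). The cap-binding subunit NCBP2 (0.43 ± 0.05) was the called gene of 8 (12.5%) in the export and nonsense-mediated decay list. In 3′ end processing the poly(A) polymerase PAPOLB (PAPOLA on the platform) was higher (0.27 ± 0.10) and the Integrator subunit INTS7 lower (-0.43 ± 0.18) of 8 genes. That is 12.5% each way, beside 18.5% and 6.1% of all genes. TRMT5, a transfer RNA methyltransferase, was the called gene of 9 in its list (11.1%) and was lower (-0.23 ± 0.08).

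Markers of other cells and fibre types were read on the same arrays, where 18.5% of all genes were called higher and 6.1% lower. In the slow and cardiac-type muscle list 13 of 16 measured genes were lower, with a median of -1.10, and in the leukocyte list 3 of 13 were lower, with a median of -0.25. Of 18 fibroblast markers 2 were higher and 3 lower (median -0.05). The counts were for endothelial markers 1 higher of 6 (-0.03), for adipocyte markers 2 higher of 3 (0.26), for erythrocyte markers 1 higher of 7 (-0.21) and for fast-type muscle 1 higher and 2 lower of 5 (-0.20). Their part in the ratios of the splicing genes was not tested.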

How the data were processed

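The authors deposited 1 log2 ratio of the dyes per feature and array (45220 features). That the base is 2 was inferred from the numbers. Not given in the sources used here are the numerator, scanner, background correction, within-array normalization and genome build. The labels' protocols give Trizol extraction and 2 µg of total RNA. Values of 16 or more (a ceiling of 16.61) were treated as not measured, and 160 features within 0.005 of 0 on at least 3 arrays were left out, 0 of them among the members. Between 39376 and 40278 values per array remained, with deposited medians of -0.19, -0.49, -0.58 and -0.52. Signal over background is unknown, and 4 arrays limit the precision.

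Each array was centred on its median and features were averaged per gene. Platform symbols (4391 features) were updated through RefSeq synonyms (assembly GRCg7b), for 10 of the 49 members. An intercept-only limma 3.58.1 model (lmFit, eBayes; R 4.3.3) gave a two-sided test of each mean ratio, Benjamini-Hochberg adjusted over 3494 genes, or over 31722 features. On simulated data 61% of 1.5-fold and 82% of 2-fold changes among 200 changed of 3494 genes were recovered, with 13 false calls. The simulation drew independent normal noise with the SD of each gene, without array or dye effects or centring. It changed fewer genes than the 861 called here, so its rates hold for that setting and need not hold for these arrays. Every member could be named, and other RNA processing genes were named if called, at most 4 per list and direction. The members and lists were chosen with earlier results of these data known. Alternatives varied centring, scaling, moderation, weights, filters, the gene value, the threshold and the arrays used.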

Additional observations from a re-analysis of the deposited data

Results flagged for a closer look

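Among the 48 members, 2 had an array far from the other 3, where chance flags about 1 in 20 groups of 4. DDX5 was at 0.21 on array 4 against 0.34 to 0.35 on the others, and RBM15B was at -0.17 on array 4 against 0.03 to 0.05. The member DDX5 was called higher and RBM15B was not called.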

How the results depend on the processing

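Of the alternatives that leave the zero and the arrays alone, equal median absolute deviations, quantile normalization, robust moderation, keeping features near 0 and the median over features gave the same 15 member calls. The unmoderated statistic called 12 of them, all higher, beside 16.9% of all genes higher and 3.75% lower. The calls of DHX29, LSM8 and SUGP2 were lost there. Members called lower numbered 0 with the unmoderated statistic, with values on at least 3 arrays and at a threshold of 0.01. Of all genes 3.75%, 3.93% and 1.17% were called lower there. They numbered 2 with array weights, without the tenth of genes with the largest SD and at 0.10, beside 7.47%, 8.87% and 9.85% of all genes. At 0.01, 171 genes, 6 members, 0 member features and 1 other RNA processing gene were called. At 0.10, 14 member features and 28 other RNA processing genes were called, beside 24.1% of all genes higher and 9.85% lower. Member features called numbered 12 by the unmoderated statistic, 2 with values on at least 3 arrays, 3 when centred on the least variable features and 1 as deposited. The shares over all features were not counted in these alternatives, so the counts of member features have no baseline. When arrays were centred on the least variable features, 9 of the 48 members were called (7 higher, 2 lower), beside 6.9% of all genes higher and 11.8% lower. The member median there was -0.041. As deposited 1 of the 48 was higher and 11 lower, beside 0.258% and 32.7% of all genes, with a member median of -0.322.

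Leaving out each array in turn gave 325, 4, 4 and 4 called genes without arrays 1, 2, 3 and 4 (404, 4, 5 and 198 over the features with 4 values), 0 to 8 called members (0 to 8 higher, 0 lower), 0 member features, 0 to 8 other RNA processing genes and a member median of 0.083 to 0.132. All 15 called members had the same sign on all 4 arrays, so their sign in these fits was fixed in advance and is no separate result. The calls were lost on the adjusted p. Means that changed sign there ranged for CSTF3 from -0.089 to 0.004, DDX18 -0.015 to 0.14, DDX55 -0.088 to 0.10 (0.0043 without array 3), DHX37 -0.28 to 0.022, HNRNPR -0.012 to 0.028, RBM12 -0.075 to 0.33, RBM15B -0.039 to 0.035, LSM11 -0.34 to 0.015, LSM7 -0.41 to 0.094, SF3A2 -0.36 to 0.099 and NPM1 -0.18 to 0.44. NPM1 was -0.021 with values on at least 3 arrays.

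As deposited, which lowers all genes, these means turned negative: CPSF4 -0.041, CSTF2 -0.38, CSTF1 -0.40, DDX5 -0.13, DDX19 -0.20, DDX46 -0.21, DDX6 -0.28, DDX1 -0.31, DDX20 -0.32, DDX18 -0.38, DHX29 -0.021, DHX33 -0.25, HNRNPAB -0.089, HNRNPH3 -0.32, HNRNPLL -0.36, HNRNPR -0.43, RBM12 -0.25, RBMS1 -0.37, RBM17 -0.38, RBM7 -0.41, LSM5 -0.16, LSM4 -0.36, SRSF2 -0.31, U2AF1 -0.15, SNRPB2 -0.15, SNRPA1 -0.22, SF3B4 -0.36, PPIL3 -0.14, SMU1 -0.11, SNRNP40 -0.18, KHDRBS3 -0.041, TIAL1 -0.23, PAPOLB -0.17, NCBP2 -0.014, EXOSC9 -0.095, WDR61 -0.021, EBNA1BP2 -0.13, NCL -0.14, NHP2 -0.13, NIP7 -0.20 and NPM1 -0.033. Centred on the least variable features, so did CSTF2 -0.098, CSTF1 -0.12, DDX1 -0.029, DDX20 -0.039, DDX18 -0.096, HNRNPH3 -0.043, HNRNPLL -0.080, HNRNPR -0.15, RBMS1 -0.093, RBM17 -0.10, RBM7 -0.13, LSM4 -0.077, SRSF2 -0.033 and SF3B4 -0.078. With the named genes at 0, so did CSTF1 -0.012, HNRNPR -0.040 and RBM7 -0.021. The fit is itself paired, because each ratio pairs the conditions within an array, and no further pairing was possible as the arrays form 1 group.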

Other observations

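The feature of SNRPB, a protein of the Sm ring, had deposited log2 ratios of -1.58 on array 1 and -2.50 on array 3. It had no value on arrays 2 and 4, so it entered no test. Its signal over background is unknown, so these values give no measure of a difference. POP5, a subunit of the ribonucleases P and MRP that process transfer and ribosomal RNA, was above 0 on every array without passing (0.63, 0.55, 1.67 and 0.54, limma adjusted p = 0.0695). UPF1, the helicase of nonsense-mediated decay, was below 0 on every array without passing (-0.59, -0.33, -0.33 and -1.07, adjusted p = 0.0617). Both were named after their values were seen.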
